A study of Mus musculus with 8 samples.

Results

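ApcMin/+ colon adenomas were compared with non-adenoma colon of the same genotype across all genes. The comparison uses 4 of the 8 libraries of the series: 3 single adenomas (adenomas 1, 2 and 3) and 1 section of non-adenoma colon. All 4 came from untreated C57BL/6J mice with 1 Min allele of Apc, killed at 110 to 120 days of age. Section and adenomas therefore share the germline mutation, and the comparison is between lesion and non-adenoma colon, not between mutant and wild type. Whole pieces of tissue were sequenced, with the stroma and any muscle that came with them. The labels do not say from which mouse the section came, nor that the adenomas came from separate mice. The p-values below therefore rest on spread between single adenomas, which may leave out spread between mice. The other 4 libraries, 3 adenomas and 1 section from wild-type C57BL/6J mice given AOM/DSS (azoxymethane at 10 mg/kg at 6 to 7 weeks of age, 3 cycles of 2% dextran sulfate sodium, killed 70 days after azoxymethane), entered the fit for its estimate of spread and served for 1 test of the difference between the models.

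Apc belongs to the complex that marks β-catenin for destruction. Where the complex fails, β-catenin enters the nucleus, joins TCF and LEF factors on DNA and drives WNT target genes, several of which encode inhibitors of the same pathway. In the healthy gut this programme runs at the crypt base, where stem cells divide, and fades as cells differentiate into absorptive colonocytes, mucus-making goblet cells and hormone-making enteroendocrine cells. The Min allele truncates Apc, and intestinal adenomas of these mice usually lack the normal allele.

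Levels are given as CPM (counts relative to the TMM-scaled library size), and adenoma values always stand in the order adenoma 1, 2 and 3. A value with ± is a log2 fold change of adenomas against the section with its SE, unless said otherwise, and each named gene said to rise or fall passed the test described below. Apc itself stood at 132 CPM in the section and 151, 154 and 150.3 CPM in the adenomas, and its log2 fold change of 0.20 ± 0.22 (SE) did not pass the test (adjusted p = 0.53). These counts do not separate the mutant from the normal allele, so they check nothing about the genotype. Markers of colon epithelium were present in every library: their sum over 12 genes was 16763 CPM in the section and 6504, 7892 and 10936 CPM in the adenomas. In whole tissue, fewer cells of a type and less RNA per cell cannot be told apart. Depth was even, at 20674848 counts in the section and 20775903, 22719895 and 21784486 in the adenomas, and a count of 0 allows up to 0.172 CPM in the section. The 10 most abundant genes took 9.81% of the CPM of the section and 5.51, 6.55 and 6.08% of that of the adenomas. The section was the only control library, and the fit assumes that it would vary as the adenomas do. Across genes, log2 CPM of adenomas 1 and 2 correlated at r = 0.987, while adenoma 3 correlated at 0.972 and 0.973 with these and, at 0.930, more closely with the section than they did (0.875 and 0.870). Genes are not independent replicates.

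Of 17218 genes tested, 2824 (16.4%) passed edgeR's quasi-likelihood test at an adjusted p under 0.05, with 1731 (10.1%) higher and 1093 (6.35%) lower in adenomas. Gene lists below are read against these shares, and a list whose share of calls lies near them is not a result about its genes. The lists were chosen with earlier results of these data known. A share above these therefore describes a list and is no independent support. The median log2 fold change over all genes was 0.03. Large rises outnumbered large falls: 627 genes were called with a fitted rise over 4-fold and 343 with a fall over 4-fold, and beyond 16-fold the counts were 249 and 70. These counts are not on an equal footing, since absence is judged in 1 section for a rise and in 3 adenomas for a fall. Of 127 genes called with a rise over 64-fold, 73 had 0 counts in the section, where the fitted size depends on the prior count. Among genes called lower, 2 had 0 counts in all 3 adenomas. In 14003 genes (81.3%) the section lay outside the range of the 3 adenomas, so non-overlap with this lone library is common and says little about any gene. The number of calls turned on which adenoma was left out: 398 genes were called without adenoma 1, 354 without adenoma 2 and 4419 without adenoma 3, of which 2745 were among the 2824. Leaving out AOM/DSS adenoma 1 or 3 gave 1581 and 1545, and the 4 ApcMin/+ libraries alone gave 951. All 2824 kept their direction in the fits that left out 1 adenoma, and 2820 did so with the 4 libraries alone. These fits share the lone section and most of the adenomas behind the calls, so kept direction was close to fixed and is no support. The 4 libraries alone left 16345 genes to test, and a gene not tested there counted as not kept. The share of calls that were higher, 61.3% here, depended on the fit. It was 53.4% with DESeq2-type size factors in edgeR, 53.8% with DESeq2, 55.9% with upper quartile scaling and 49.3% without adenoma 3. With limma on log2(FPKM + 1), which has no TMM scaling and a median over all genes of 0.26, it was 79.3%.

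**Figure D1:**
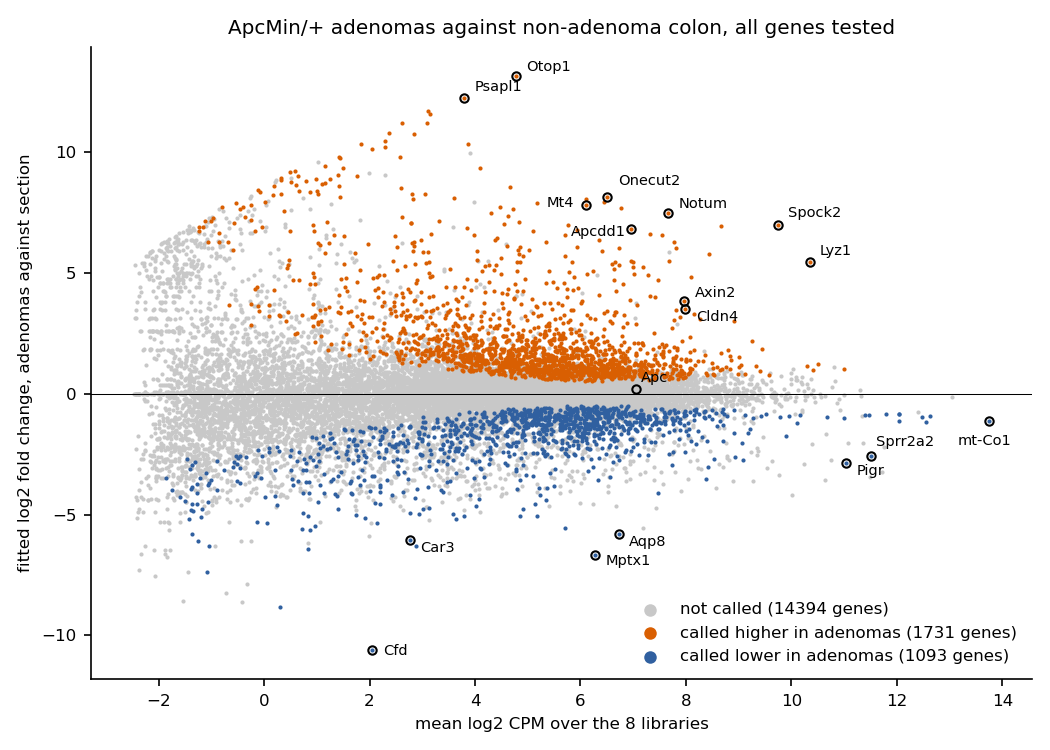
Each point is a gene tested. The horizontal axis is edgeR's average log2 CPM over the 8 libraries, which follows the mean CPM. The vertical axis is the fitted log2 fold change of ApcMin/+ adenomas against the section. Orange points were called higher (1731), blue points lower (1093). The slanted upper edge of the points is made up of genes with 0 counts in the section, whose fitted height depends on the fit's prior count.

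WNT targets and feedback inhibitors rose together. Of 21 tested list members 18 rose and 0 fell, with a median log2 fold change of 3.65. Inhibitors of the pathway rose by large factors. Nkd1, which dampens the signal inside the cell by binding Dishevelled, stood at 14.3 CPM in the section and 472, 393 and 352 CPM in the adenomas (4.83 ± 0.41, adjusted p = 0.00891). Notum, an enzyme that strips the lipid from WNT ligands, stood at 1.32 CPM in the section and 274, 253 and 190.4 CPM in the adenomas, a log2 fold change of 7.50 ± 1.00 (adjusted p = 0.0133). Wif1, which binds WNT ligands, stood at 12.2 CPM in the section and 658, 823 and 534 CPM in the adenomas (5.78 ± 1.19, adjusted p = 0.0294). Adenoma 3 was the lowest adenoma in each of these genes, and it still lay far above the section. Dkk2, a secreted ligand of the WNT co-receptors, was at 3.84 CPM in the section and 134, 132 and 87.7 CPM in the adenomas (4.94 ± 0.59). Apcdd1, a membrane-bound inhibitor, stood at 2.35 CPM in the section and 319, 222 and 251 CPM in the adenomas, a log2 fold change of 6.81 ± 0.41 with the smallest adjusted p of the list (0.00652). Inside the cell, Axin2, a scaffold of the destruction complex, was at 21.4 CPM in the section and 380.2, 286 and 239 CPM in the adenomas (3.82 ± 0.43, adjusted p = 0.0108). Znrf3, a ligase that removes WNT receptors, was at 13 CPM in the section and 84.7, 69.1 and 58.5 CPM in the adenomas (2.44 ± 0.31). The groups did not overlap in any of these genes, as in 81.3% of all genes tested, so this adds nothing to the calls.

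Transcription factors on the list rose as well. Sp5, a zinc finger factor and known feedback target of the pathway, stood at 0.344 CPM in the section and 31.6, 31.2 and 23 CPM in the adenomas (6.35 ± 0.63, adjusted p = 0.00988). Prox1, a homeobox factor, was at 6.08 CPM in the section and 468, 414 and 304 CPM in the adenomas (6.02 ± 1.29, adjusted p = 0.0316). Sox4, an HMG-box factor, was at 52.7 CPM in the section and 525, 505 and 325 CPM in the adenomas (3.10 ± 0.44). Smaller rises were seen in Myc, from 30.3 CPM in the section to 62.9, 62.9 and 56.4 CPM in the adenomas (1.00 ± 0.18), and in Ccnd1, a cyclin of the G1 phase (1.42 ± 0.25). The receptor genes Ephb2 and Ephb3, which place cells along the crypt, did not pass (0.51 ± 0.17 and 0.78 ± 0.33, adjusted p = 0.0828 and 0.135). Zcchc12 was the only tested member with a negative value (-2.07 ± 0.80, not called). Without adenoma 1 or without adenoma 2 the list had 11 genes higher, and without adenoma 3 it had 18. Medians in these fits lay between 3.48 and 3.80.

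**Figure D2:**
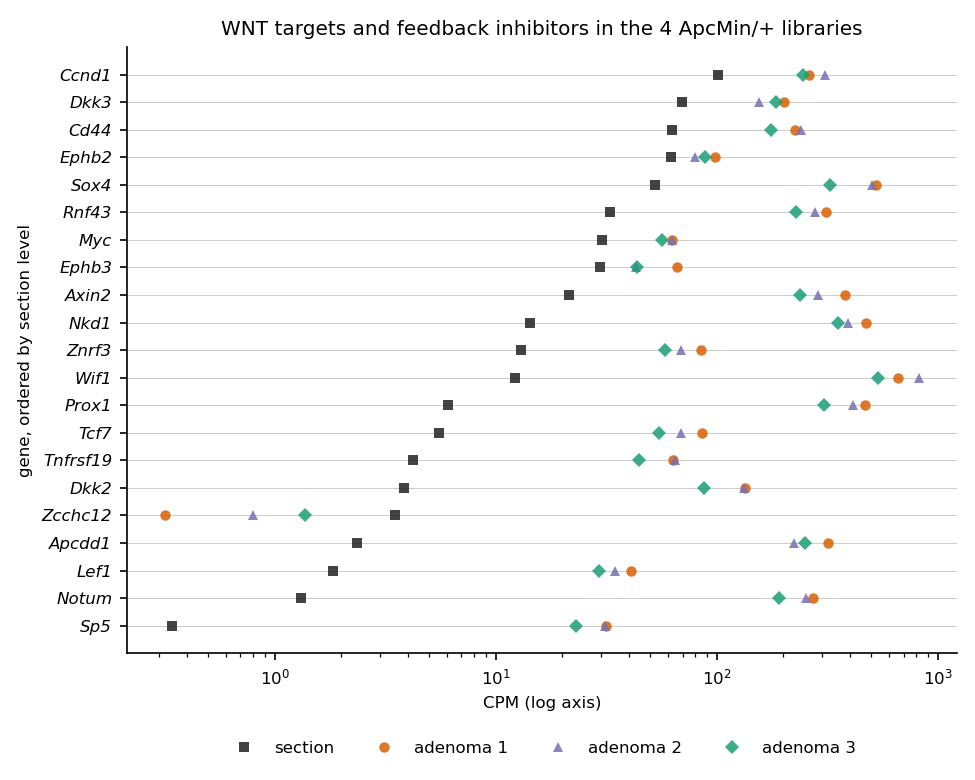
CPM on a log axis of the 21 tested WNT targets and feedback inhibitors in the section (black squares) and in adenomas 1, 2 and 3 (circles, triangles, diamonds). In 20 genes all 3 adenomas lie above the section, and in Zcchc12 all 3 lie below. The section lies outside the range of the adenomas in 81.3% of all genes tested.

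Promoter sequence was looked at because these genes moved together and their regulators bind a known short motif. TCF and LEF factors bind the word CTTTGAA and its variants. That word was searched, together with the variant CTTTGAT, the variant CTTTGTA and the variant CTTTGTT, which makes 4 words, on both strands of RefSeq promoters (250 bases before to 50 after the start site, GRCm38.p6, a later build than that of the deposited tables). At least 1 of them occurs in 16.9% of all 32851 promoters in the table. Of the WNT list 15 genes matched the table, with 22 promoters, of which 3 (13.6%) held a match. Among promoters of genes tested, the share was 13.9% for genes called higher, 11.7% for genes called lower and 12.1% for genes not called. A promoter without a match says only that these letters are not in this window. The 3 promoters that hold it are shown with the matches in capitals, 5′ to 3′ on the gene's strand. They are Lef1 at chr3:131156044-131156343 (plus strand), Sp5 at chr2:70474673-70474972 (plus strand) and Tnfrsf19, a receptor also known as Troy, at chr14:61037938-61038237 (minus strand).
Lef1: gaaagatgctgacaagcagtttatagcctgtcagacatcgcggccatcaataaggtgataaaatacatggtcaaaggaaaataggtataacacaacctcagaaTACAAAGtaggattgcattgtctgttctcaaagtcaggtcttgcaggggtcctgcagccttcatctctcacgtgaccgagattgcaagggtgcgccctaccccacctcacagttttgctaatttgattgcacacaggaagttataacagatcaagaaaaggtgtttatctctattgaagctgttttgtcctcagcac
Sp5: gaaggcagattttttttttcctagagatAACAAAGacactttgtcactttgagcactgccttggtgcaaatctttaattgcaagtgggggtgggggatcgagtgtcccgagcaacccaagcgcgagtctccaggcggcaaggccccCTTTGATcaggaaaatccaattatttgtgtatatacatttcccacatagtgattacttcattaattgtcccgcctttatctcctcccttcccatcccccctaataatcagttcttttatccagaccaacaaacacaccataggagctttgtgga
Tnfrsf19: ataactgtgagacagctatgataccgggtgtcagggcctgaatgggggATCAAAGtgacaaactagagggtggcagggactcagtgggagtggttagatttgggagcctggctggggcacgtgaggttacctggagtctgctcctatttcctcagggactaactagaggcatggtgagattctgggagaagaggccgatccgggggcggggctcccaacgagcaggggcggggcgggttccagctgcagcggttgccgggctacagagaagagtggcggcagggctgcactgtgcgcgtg
In Lef1 the match lies 147 bases before the start site, on the opposite strand. Sp5 holds matches 222 and 104 bases before its start site, on the opposite and the same strand. In Tnfrsf19 the match lies 202 bases before the start site, on the opposite strand. The 3 genes rose by 4.25 ± 0.39, 6.35 ± 0.63 and 3.76 ± 0.66 on the log2 scale.

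Crypt stem cell markers changed less evenly. Of 14 tested, 4 rose and 0 fell, with a median of 1.08. Ascl2, a WNT-driven factor of crypt stem cells, stood at 5.33 CPM in the section and 32.9, 31.3 and 18.5 CPM in the adenomas (2.37 ± 0.51, adjusted p = 0.0316). Hopx, a marker of reserve stem cells, stood at 43.5 CPM in the section and 123, 141 and 86.7 CPM in the adenomas (1.42 ± 0.29). Tert, the catalytic subunit of telomerase, was at 1.49 CPM in the section and 5.95, 4.74 and 4.63 CPM in the adenomas (1.77 ± 0.39). Lgr5, the classical marker of the crypt base, was at 14.7 CPM in the section and 101, 125 and 57.9 CPM in the adenomas. Every adenoma was above the section, but the SE was large and the test was not passed (2.68 ± 1.15, adjusted p = 0.138). The SE draws on the adenomas of both models. Smoc2 (1.75 ± 0.59) and Msi1 (3.34 ± 0.95) had positive values without a call, and Lrig1, a brake on ERBB signalling in stem cells, a negative one (-1.09 ± 0.34). None of the 4 calls held without adenoma 1 or without adenoma 2.

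Transcription factors that set the position of a cell along the gut moved in both directions. Of 29 tested, 6 rose and 5 fell (median -0.47). Several of those that rose had low levels in the section. Onecut2 stood at 0.516 CPM in the section and 199, 160.1 and 83.2 CPM in the adenomas (8.14 ± 1.13, adjusted p = 0.0141). Hoxd13, a gene of the hind end of the body axis, was at 8.14 CPM in the section and 69.5, 193 and 141 CPM in the adenomas (4.05 ± 0.68, adjusted p = 0.0202), with its lowest value in adenoma 1. Prdm1, a repressor known from the fetal gut epithelium of mice, was at 6.99 CPM in the section and 42.1, 34.6 and 34.3 CPM in the adenomas (2.40 ± 0.30). Irx5, an Iroquois homeobox gene, had 0 counts in the section and 7.94, 5.98 and 5.91 CPM in adenomas, which was at least 38.4-fold higher against 3 counts. Among the 5 that fell was Hnf4a, a nuclear receptor of enterocytes, at 689 CPM in the section and 210.0, 252 and 388 CPM in the adenomas (-1.28 ± 0.32, adjusted p = 0.0422). Vdr, the vitamin D receptor, was at 268 CPM in the section and 24.8, 21.1 and 68.8 CPM in the adenomas (-2.81 ± 0.57). In both genes adenoma 3 was nearest to the section. Cdx1 fell by 1.86 ± 0.46 on the log2 scale, while Cdx2, the master factor of intestinal identity, was at 62.5 CPM in the section and 1.32, 0.665 and 11.2 CPM in the adenomas and did not pass (-3.83 ± 1.20, adjusted p = 0.0679). Pdx1, a factor of duodenum and pancreas, had 21 counts in the section and 6 over the 3 adenomas, 1.2 CPM in the section and 0.0908, 0.0443 and 0.137 CPM in the adenomas, and was called lower. Without adenoma 1 or 2 the list had 5 genes higher and 0 lower, and without adenoma 3 it had 6 higher and 11 lower. With the 4 ApcMin/+ libraries alone it had 5 higher and 0 lower.

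Other growth pathways changed in part. In the Notch list, whose receptors hold back secretory fates, 4 of 17 rose and 0 fell (median 0.12). Jag2, a ligand, stood at 2.46 CPM in the section and 16.3, 12.6 and 10.9 CPM in the adenomas (2.43 ± 0.39, adjusted p = 0.0193), and the target gene Hey1 at 2.58 CPM in the section and 17.7, 15.2 and 9.02 CPM in the adenomas (2.44 ± 0.52). Notch1 rose by 1.47 ± 0.32. The main target Hes1 was at 64.9 CPM in the section and 68.3, 85.3 and 86.6 CPM in the adenomas and did not pass. Atoh1, the factor that Notch represses and that starts secretory fates, was at 101 CPM in the section and 4.13, 6.69 and 32.7 CPM in the adenomas without a call (-2.80 ± 1.01, adjusted p = 0.0934). Of 28 BMP and TGF-β genes 6 rose and 1 fell (median 0.24). The activin subunit genes Inhba and Inhbb rose by 3.20 ± 0.45 and 3.14 ± 0.46, and the ligand gene Bmp7 went from 15.2 CPM in the section to 73.2, 83 and 77.7 CPM in the adenomas (2.36 ± 0.49). Id3, a target of BMP signalling, was at 44.8 CPM in the section and 203, 203 and 166 CPM in the adenomas (2.09 ± 0.28, adjusted p = 0.0135), and Id2 rose by 1.66 ± 0.27. Id4 went the other way, at 27.8 CPM in the section and 2.86, 1.73 and 7.51 CPM in the adenomas (-2.78 ± 0.67). The antagonist gene Grem1 was at 325 CPM in the section and 111, 159 and 288 CPM in the adenomas and did not pass.

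In the EGF family 3 of 13 rose and 3 fell (median 0.39). The ligand gene Nrg1 stood at 1.55 CPM in the section and 8.17, 21.4 and 20.8 CPM in the adenomas (3.43 ± 0.77), and Tgfa at 27.6 CPM in the section and 64, 60 and 63.7 CPM in the adenomas (1.18 ± 0.20), a small rise with little spread. Hbegf rose by 1.62 ± 0.43. Egf itself fell, from 15.2 CPM in the section to 1.18, 0.931 and 2.11 CPM in the adenomas (-3.43 ± 0.52, adjusted p = 0.0169). Erbb3, a receptor for neuregulins, was at 268 CPM in the section and 136, 99.6 and 149 CPM in the adenomas (-1.07 ± 0.23), and Lrig3 fell by 2.51 ± 0.54. In the IGF system 3 of 12 rose and 0 fell: the growth factor gene Igf1, at 47.9 CPM in the section and 130.0, 193 and 129 CPM in the adenomas (1.65 ± 0.29), and the binding protein genes Igfbp5, at 197 CPM in the section and 636, 665 and 769 CPM in the adenomas (1.81 ± 0.22), and Igfbp4 (1.39 ± 0.30). The median was 0.74 (0.63 where genes without counts are held at their bound). The Notch, BMP, EGF and IGF lists together had 16 genes higher here. Without adenoma 1 they had 1, 3, 1 and 1 genes higher, and without adenoma 2 they had 0, 2, 0 and 2.

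Paneth cells are antimicrobial cells of the small intestine that the mouse colon normally lacks. Of 12 Paneth cell genes outside the defensins 6 rose and 2 fell, with a median of 4.33. Mmp7, the protease that activates defensins, stood at 3.67 CPM in the section and 492, 617 and 255 CPM in the adenomas (6.95 ± 0.69, adjusted p = 0.00988). Itln1, an intelectin, was at 5.04 CPM in the section and 104, 256 and 98.9 CPM in the adenomas (4.92 ± 0.76). Pla2g2a, a phospholipase gene, was at 11.2 CPM in the section and 136, 184 and 106 CPM in the adenomas (3.66 ± 0.60), which says nothing about an active enzyme. Adenoma 2 was the highest of the 3 in each of these genes, and in Lyz1, whose reads may be shared with its near copy Lyz2 (39 CPM in the section and 1163, 2695 and 1222 CPM in the adenomas). Reg3b and Reg3g, bactericidal lectins, had positive values that did not pass, with 72.8, 97.9 and 17.3 CPM in the adenomas for Reg3g against 4.7 CPM in the section. The pentraxin genes Mptx1 and Mptx2, near copies of each other, moved in opposite directions. Mptx1 fell from 527 CPM in the section to 11.1, 1.64 and 2.66 CPM in the adenomas (-6.68 ± 1.42), and Mptx2 rose from 0.229 CPM in the section to 44.8, 17.7 and 12.1 CPM in the adenomas (6.72 ± 1.76). Among α-defensin genes, a group added after values were seen, 11 of 14 rose, with a summed level of 9.80 CPM in the section and 292, 635 and 330 CPM in adenomas. These genes are near copies of each other, so single members are uncertain. Without adenoma 1 or without adenoma 2 the Paneth list had 4 genes higher and 0 lower, and Mptx1 was not among those called.

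Genes of other epithelia rose too. Of 18 fetal, regenerative and YAP genes 7 rose and 0 fell (median 1.22). Tead2, a partner of YAP on DNA, stood at 7.11 CPM in the section and 119, 105 and 68.4 CPM in the adenomas (3.77 ± 0.48, adjusted p = 0.0124), and Yap1 rose by 0.99 ± 0.18. The regenerative marker Ly6a was at 188 CPM in the section and 176, 184 and 277 CPM in the adenomas and did not pass. Of 15 keratin and cornified envelope genes 6 rose and 1 fell (median 1.69). Krt14, a keratin of basal squamous cells, was at 0.516 CPM in the section and 18.6, 31.6 and 23.2 CPM in the adenomas (5.55 ± 0.57). Krt36, known from hair and tongue, was at 1.49 CPM in the section and 67.8, 142 and 87.3 CPM in the adenomas (6.05 ± 0.84), and Krt23 at 14.6 CPM in the section and 229, 262 and 162 CPM in the adenomas (3.89 ± 0.50). Krt6a had 0 counts in the section and was at least 30.8-fold higher in adenomas. The simple keratin genes Krt8 and Krt19 had negative values without a call (-0.92 ± 0.30 and -0.67 ± 0.31), and Krt5, the usual partner of Krt14, was at 0.229 CPM in the section and 0, 0.0886 and 0.0458 CPM in the adenomas. Among 19 claudin and junction genes 3 rose and 1 fell, shares near those of all genes. Cldn4, a barrier claudin, was at 36.7 CPM in the section and 493, 411 and 348 CPM in the adenomas (3.51 ± 0.35, adjusted p = 0.00988), and Cldn15, a cation pore, at 126 CPM in the section and 5.4, 7.13 and 26.8 CPM in the adenomas (-3.27 ± 0.73). Without adenoma 1 the fetal, keratin and claudin lists had 4, 4 and 2 genes higher, and without adenoma 2 they had 3, 4 and 2.

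Genes of the cell cycle rose together. All 25 tested mitosis genes were called higher, and 25 of 32 replication genes, with 0 lower in either list and medians of 1.68 and 1.30. Plk1, a mitotic kinase, stood at 9.69 CPM in the section and 59, 49.5 and 34.1 CPM in the adenomas (2.29 ± 0.35, adjusted p = 0.0169). Top2a, which untangles chromosomes, was at 68.3 CPM in the section and 338, 369 and 213 CPM in the adenomas (2.17 ± 0.36). Pole, the leading-strand polymerase, was at 7.22 CPM in the section and 56.4, 52.6 and 35.5 CPM in the adenomas (2.74 ± 0.35). In every case the section was lowest and adenoma 3 lowest of the adenomas. The 7 replication genes that did not pass included Pcna (1.00 ± 0.28, adjusted p = 0.0527) and Orc1 (-0.29 ± 0.26). Without adenoma 3 the mitosis and replication lists had 25 and 28 genes higher. Without adenoma 1 the mitosis and replication lists had 2 and 6 genes higher, and without adenoma 2 they had 4 and 8, with medians of 1.55 to 1.60 and 1.20 to 1.27. Brakes of the cycle were mixed, with 5 of 23 genes of the CDK inhibitor and p53 list higher and 1 lower (median 0.42). Cdkn2a, which encodes p16INK4a and p19ARF, had 2 counts in the section and stood at 0.115 CPM in the section and 8.81, 15.9 and 10.7 CPM in the adenomas, a ratio of 103 (95% counting interval 28.5 to 854). Trp53 was at 50.9 CPM in the section and 142, 134 and 112 CPM in the adenomas (1.35 ± 0.23). Cdkn1b, which encodes p27, fell from 99.7 CPM in the section to 63.2, 52.6 and 64.7 CPM in the adenomas (-0.73 ± 0.16), and Cdkn1a, a p53 target encoding p21, was at 263 CPM in the section and 136, 178 and 225 CPM in the adenomas without a call. This list had 1 gene higher and 0 lower without adenoma 1 or without adenoma 2, and without adenoma 3 it had 7 higher and 1 lower.

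Chromatin regulators rose with the cell cycle genes. Of 16 genes of DNA methylation and Polycomb 10 rose and 1 fell (median 1.00). Uhrf1, which brings the maintenance methylase to newly copied DNA, was at 22.3 CPM in the section and 85.8, 99 and 69.4 CPM in the adenomas (1.93 ± 0.24, adjusted p = 0.0122). Dnmt1, that methylase, was at 44.3 CPM in the section and 119, 109.6 and 96.5 CPM in the adenomas (1.29 ± 0.20), and the de novo enzymes Dnmt3a and Dnmt3b rose by 1.09 ± 0.23 and 1.64 ± 0.40. Ezh2, the Polycomb methyltransferase, was at 28.8 CPM in the section and 121, 130.2 and 81.6 CPM in the adenomas (1.95 ± 0.33), whereas its relative Ezh1 had a value of -0.50 ± 0.18 and did not pass. Reader subunits of Polycomb moved in opposite directions: Cbx2 was at 4.81 CPM in the section and 38.9, 29.8 and 24.6 CPM in the adenomas (2.69 ± 0.42) and Cbx7 at 24.9 CPM in the section and 13.5, 10.1 and 13.2 CPM in the adenomas (-1.02 ± 0.25). Ribosome biogenesis genes rose in 7 of 20 cases and splicing regulators in 5 of 20, with 0 lower and medians of 0.76 and 0.66. The sizes were small: Mybbp1a, a nucleolar protein, was at 78 CPM in the section and 186, 208 and 171 CPM in the adenomas (1.27 ± 0.18). Without adenoma 1 the methylation and Polycomb, ribosome and splicing lists had 2, 1 and 0 genes higher, and without adenoma 2 again 2, 1 and 0.

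Genes of the absorptive colonocyte fell. Of 27 ion and water transport genes 8 fell and 1 rose, with a median of -2.48. Car2, a carbonic anhydrase that supplies bicarbonate and protons for salt uptake, stood at 1216 CPM in the section and 88.9, 62.5 and 164 CPM in the adenomas (-3.53 ± 0.48, adjusted p = 0.0135). Cftr, the chloride channel, was at 177 CPM in the section and 24, 25.3 and 46.1 CPM in the adenomas (-2.48 ± 0.48). Gucy2c, the guanylin receptor, was at 288 CPM in the section and 38.7, 54.6 and 114 CPM in the adenomas (-2.06 ± 0.49), and Nr3c2, the aldosterone receptor, at 131 CPM in the section and 12.2, 12.5 and 43.6 CPM in the adenomas (-2.53 ± 0.68). Adenoma 3 lay between the section and the other adenomas in each. Slc26a3, the chloride and bicarbonate exchanger, was at 481 CPM in the section and 4.36, 0.266 and 52.5 CPM in the adenomas. Car4 was at 699 CPM in the section and 5.99, 0.487 and 38.2 CPM in the adenomas. Neither passed (adjusted p = 0.096 and 0.0533), and the adenomas differed widely among themselves. Slc9a3, the apical sodium and proton exchanger NHE3, rose instead, at 21.8 CPM in the section and 122, 92.3 and 77.3 CPM in the adenomas (2.16 ± 0.32), while its scaffold gene Slc9a3r1 fell by 1.06 ± 0.16. Without adenoma 3 the list had 21 genes lower and a median of -3.42. Without adenoma 1 or 2 it had 0 and 1 lower, with medians of -2.14 and -2.04.

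Enzymes and pumps that clear foreign compounds fell in 19 of 33 cases and rose in 1 (median -2.14). Cyp2d26, a cytochrome P450, was at 19.3 CPM in the section and 2.63, 2.84 and 3.34 CPM in the adenomas (-2.71 ± 0.35, adjusted p = 0.0127), with adenomas close together. Ugt2b34, a glucuronosyltransferase, was at 558 CPM in the section and 230.1, 265 and 219 CPM in the adenomas (-1.23 ± 0.17). Mgst1, a membrane glutathione transferase, was at 204 CPM in the section and 53.9, 44.2 and 59.3 CPM in the adenomas (-1.96 ± 0.27). The fall held in all 3 adenomas to a similar degree in these genes. The efflux pumps showed a wider range: Abcb1a, P-glycoprotein, was at 459.5 CPM in the section and 26.3, 23.1 and 77.8 CPM in the adenomas (-3.44 ± 0.63), and Abcg2 at 92.3 CPM in the section and 8.72, 10.6 and 26.5 CPM in the adenomas (-2.59 ± 0.57). Aldh1a1, which makes retinoic acid, was at 55 CPM in the section and 3.36, 6.6 and 9.85 CPM in the adenomas (-3.06 ± 0.54). Cyp2b10 was the gene that rose, with 0 counts in the section and 9.71, 13.2 and 7.69 CPM in adenomas, at least 59.3-fold higher. The list had 5 genes lower without adenoma 1, 3 without adenoma 2 and 26 without adenoma 3.

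Genes of mitochondrial fuel use fell. Colonocytes burn butyrate and other fatty acids made by bacteria, and 18 of 26 genes of ketogenesis and fatty acid oxidation fell, with 0 higher and a median of -1.22. Slc16a1, the carrier that takes up butyrate, stood at 316 CPM in the section and 41.3, 45.2 and 93.8 CPM in the adenomas (-2.39 ± 0.41, adjusted p = 0.0212). Acadm, a dehydrogenase of β-oxidation, was at 167 CPM in the section and 65, 65.6 and 80.3 CPM in the adenomas (-1.24 ± 0.16), and Acat1, the thiolase of ketone metabolism, at 244 CPM in the section and 68.1, 90.1 and 112 CPM in the adenomas (-1.44 ± 0.24). Cpt1a, the gate of fatty acids into mitochondria, fell by 1.20 ± 0.30. Of 25 nuclear respiratory chain genes 16 fell and 0 rose, with a median of -0.75. Cox5b, a subunit of cytochrome c oxidase, was at 312 CPM in the section and 126, 151 and 157 CPM in the adenomas (-1.11 ± 0.18, adjusted p = 0.0193), and Sdhb, of complex II, at 225 CPM in the section and 98.9, 129 and 123 CPM in the adenomas (-0.95 ± 0.17). These falls were small, and adenoma 3 did not stand apart from adenoma 2. Among protein-coding genes of mitochondrial DNA, a group added after values were seen, 11 of 13 fell (median -0.89), and their sum was 78974 CPM in the section and 34083, 44591 and 40215 CPM in the adenomas. Their reads may be shared with nuclear copies. Without adenoma 1 or without adenoma 2 the respiratory chain list had 0 genes called, while its medians, -0.63 and -0.84, stayed near the full value. It had 6, 9 and 5 genes lower without AOM/DSS adenoma 1, 2 or 3. With the 4 ApcMin/+ libraries alone it had 1 gene lower, and with limma on log2(FPKM + 1) it had 3. The ketogenesis list had 2 and 1 genes lower without adenoma 1 and without adenoma 2.

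Glycolysis genes showed no common direction, with 2 of 20 higher and 2 lower (median -0.18, of the opposite sign with limma on FPKM). Slc16a3, the lactate exporter MCT4, was at 22.6 CPM in the section and 128, 146 and 82.3 CPM in the adenomas (2.40 ± 0.34, adjusted p = 0.0146), the reverse of the fall in Slc16a1. Pfkfb3, which makes the activator of phosphofructokinase, was at 16.7 CPM in the section and 57.1, 53.6 and 38.4 CPM in the adenomas (1.57 ± 0.36). Pfkp, the platelet form of phosphofructokinase, was at 208 CPM in the section and 64.4, 89.2 and 106 CPM in the adenomas (-1.26 ± 0.27). Lactate dehydrogenase A (Ldha) was at 1195 CPM in the section and 797, 983 and 878 CPM in the adenomas and the glucose carrier Slc2a1 at 139 CPM in the section and 109, 109.8 and 136 CPM in the adenomas, neither called. The glycolysis list had 1 gene higher and 0 lower without adenoma 1 or without adenoma 2. Of 18 amino acid carriers 7 rose and 2 fell. The list included carriers and their partner subunits. Slc7a11, which imports cystine in exchange for glutamate, was at 7.85 CPM in the section and 113, 171 and 114 CPM in the adenomas (4.08 ± 0.51, adjusted p = 0.0122). Slc7a5, the carrier of large neutral amino acids, was at 12.3 CPM in the section and 47.1, 31.4 and 30.8 CPM in the adenomas (1.56 ± 0.38), and its partner gene Slc3a2 rose by 0.86 ± 0.22. Slc3a1, partner of the apical cystine carrier, fell from 12.4 CPM in the section to 0.499, 0.62 and 0.962 CPM in the adenomas (-4.15 ± 0.63).

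Zinc handling changed in both directions, with 6 of 16 genes higher and 3 lower. Mt4, a metallothionein known from stratified epithelium, stood at 0.573 CPM in the section and 155, 137 and 98.5 CPM in the adenomas (7.81 ± 0.68, adjusted p = 0.0091), and Mt3, known from brain, at 5.5 CPM in the section and 132, 104 and 95 CPM in the adenomas (4.32 ± 0.84). The broadly expressed Mt1 was at 73.7 CPM in the section and 70.6, 76.2 and 52.1 CPM in the adenomas and did not pass. Slc30a2, which loads zinc into secretory vesicles, was at 0.86 CPM in the section and 207, 192 and 137 CPM in the adenomas (7.69 ± 0.67, adjusted p = 0.0091). The importer genes Slc39a6, Slc39a8 and Slc39a10 rose by 1.34 ± 0.31, 1.11 ± 0.29 and 1.20 ± 0.23. The exporter genes Slc30a1 and Slc30a4 fell by 0.77 ± 0.18 and 1.00 ± 0.22, and Slc30a10, a manganese exporter, fell by 4.13 ± 0.95. Without adenoma 1 the amino acid and zinc lists had 1 and 2 genes higher and 0 lower, and without adenoma 2 each had 2 higher and 0 lower.

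Mucus and goblet cell genes had large negative values in adenomas 1 and 2 that adenoma 3 did not share in full. The summed level of 18 genes was 31220.2 CPM in the section and 1469.6, 1888 and 11108 CPM in the adenomas. Muc2, the gel-forming mucin of the colon, stood at 6114 CPM in the section and 145, 125 and 2483 CPM in the adenomas. Fcgbp, which cross-links that gel, was at 4272 CPM in the section and 128, 84.3 and 1515 CPM in the adenomas. Zg16, a lectin of the mucus, was at 6165 CPM in the section and 55.5, 14.6 and 1489 CPM in the adenomas. Adenoma 3 stood many times above the other adenomas in each of these genes, and below the section. Muc2 did not pass (adjusted p = 0.235), and of the list only 2 genes fell. Ern2, a stress sensor of mucus cells, was at 95.1 CPM in the section and 14.8, 15.8 and 40.1 CPM in the adenomas (-2.01 ± 0.49). Sytl2 fell by 1.94 ± 0.45. Ang4, an angiogenin that Paneth cells also make, rose, at 9.63 CPM in the section and 46.3, 86.4 and 37.2 CPM in the adenomas (2.56 ± 0.66). The median was -2.41 (-2.19 where St6galnac1, at 0 in adenomas, is held at its bound). Without adenoma 3 the list had 13 genes lower and a median of -3.81, and without adenoma 1 or 2 it had 0. Of 16 enteroendocrine genes 5 fell and 0 rose (median -2.72). Gcg, the glucagon-like peptide gene, was at 61.2 CPM in the section and 0.182, 0.443 and 4.4 CPM in the adenomas (-5.19 ± 1.32, adjusted p = 0.0441), and Neurod1, a factor of hormone cells, at 6.02 CPM in the section and 0.182, 0.266 and 1.1 CPM in the adenomas (-3.53 ± 0.93). Pyy was at 167 CPM in the section and 95.1, 176 and 68.8 CPM in the adenomas and did not pass. None of the 5 was called without adenoma 1 or without adenoma 2. Of 10 tested tuft cell genes 1 rose and 1 fell, and 9 had negative values (median -1.24). The gene that rose was Avil, an actin-binding gene, at 6.53 CPM in the section and 179.6, 175 and 105 CPM in the adenomas (4.55 ± 0.59, adjusted p = 0.0127). Trpm5, the taste channel of these cells, fell from 7.45 CPM in the section to 1.18, 0.975 and 1.19 CPM in the adenomas (-2.73 ± 0.40). The tuft list had 1 gene higher and 0 lower without adenoma 1 or without adenoma 2.

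**Figure D3:**
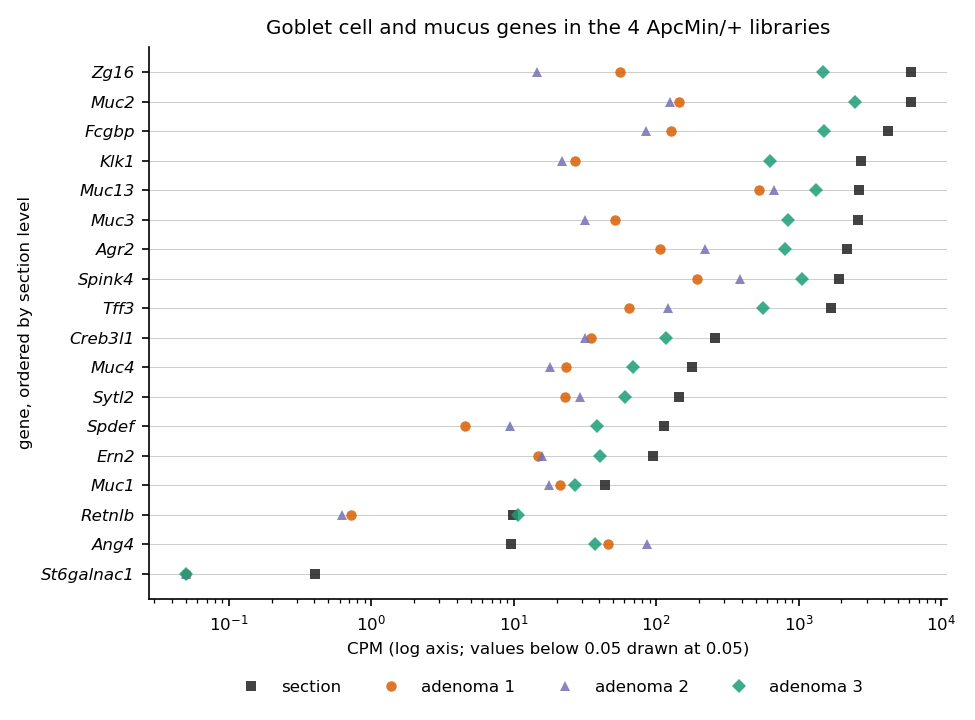
CPM on a log axis of the 18 tested goblet cell and mucus genes in the section (black squares) and in adenomas 1, 2 and 3 (circles, triangles, diamonds). Adenoma 3 lies between the section and the other adenomas in most genes, as in Muc2 with 2483 CPM against 145 and 125 CPM.

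Matrix-degrading proteases and their partners rose in 10 of 25 cases, with 0 lower and a median of 1.49. Mmp10, a stromelysin, stood at 4.18 CPM in the section and 389, 563 and 242 CPM in the adenomas (6.57 ± 0.67, adjusted p = 0.00988). Mmp13, a collagenase, was at 5.45 CPM in the section and 225, 352 and 141 CPM in the adenomas (5.46 ± 0.69), and Mmp14, a membrane-bound protease, at 109 CPM in the section and 375, 324 and 273 CPM in the adenomas (1.57 ± 0.29). Genes of plasmin activation rose too: Plat was called higher, at 22.4 CPM in the section and 473, 332 and 265 CPM in the adenomas, and the urokinase receptor gene Plaur at 7.68 CPM in the section and 36.5, 35.8 and 27.2 CPM in the adenomas (2.11 ± 0.28). Mmp2, a product of fibroblasts, was at 137 CPM in the section and 149, 184 and 168 CPM in the adenomas and did not pass. Collagens moved in both directions, with 6 of 19 higher and 3 lower (median 0.42). Basement membrane collagen genes rose modestly, as in Col4a1, at 328 CPM in the section and 686, 683 and 622 CPM in the adenomas (1.01 ± 0.17), and Col18a1 (1.91 ± 0.41). Col4a5 and Col4a6, a separate chain pair, fell by 1.75 ± 0.37 and 2.85 ± 0.56, and Col14a1 was at 78.8 CPM in the section and 12.3, 15.7 and 25.5 CPM in the adenomas (-2.14 ± 0.35). The fibrillar genes Col1a1 and Col3a1 did not pass (0.80 ± 0.31 and -0.12 ± 0.34). Laminins of basement membranes rose: Lama1 was at 6.59 CPM in the section and 40.8, 38.7 and 33 CPM in the adenomas (2.51 ± 0.23, adjusted p = 0.00969), and Lama5 rose by 2.51 ± 0.34. Of 26 integrin and laminin genes 6 rose and 2 fell (median 0.17). Itgb8 was at 3.5 CPM in the section and 23.9, 28.2 and 24.2 CPM in the adenomas (2.86 ± 0.31). The genes that fell, Itga7 and Itga8 (-1.98 ± 0.44 and -2.76 ± 0.44), are known from muscle cells, whose markers summed to 6775 CPM in the section and 687, 722 and 1998 CPM in the adenomas; the part of this in the collagen and integrin changes was not tested. Without adenoma 1 the protease, collagen and integrin lists had 6, 1 and 4 genes higher, and without adenoma 2 they had 5, 0 and 4.

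Inflammatory genes moved in both directions. Ptgs2, which encodes cyclooxygenase 2, stood at 5.22 CPM in the section and 30.8, 68.3 and 56.2 CPM in the adenomas (3.31 ± 0.53, adjusted p = 0.0188), with adenoma 1 the lowest of the adenomas. Hpgd, the enzyme that breaks prostaglandins down, was at 238 CPM in the section and 19.8, 24.8 and 68.2 CPM in the adenomas (-2.66 ± 0.71), and Slco2a1, the carrier that takes them up, at 86.2 CPM in the section and 34, 31.8 and 49.8 CPM in the adenomas (-1.16 ± 0.28). Pla2g4a, which frees their precursor, fell by 1.41 ± 0.38. In the whole prostaglandin list 2 of 18 rose and 3 fell. These falls depended on the fit: the call of Pla2g4a was lost in 11 of 17 alternative fits, that of Hpgd in 10 and that of Slco2a1 in 9. The list had 0 genes lower when adenoma 1 was dropped, 0 when adenoma 2 was dropped and 6 when adenoma 3 was dropped. Dropping the AOM/DSS adenomas singly, in the order 1, 2 and 3, gave 0, 1 and 0 genes lower. DESeq2 gave 4, and the 4 ApcMin/+ libraries alone gave 0. Of 15 acute phase genes 3 rose and 1 fell. Saa3 was at 2.06 CPM in the section and 122, 124 and 73.1 CPM in the adenomas (5.68 ± 0.47, adjusted p = 0.00891), and Cfi, an inhibitor of complement, at 0.287 CPM in the section and 76.1, 81.5 and 52.9 CPM in the adenomas (7.91 ± 1.47). Saa1, a relative of Saa3, was at 1768 CPM in the section and 75.1, 19.5 and 336 CPM in the adenomas and did not pass (-3.62 ± 1.36). Pigr, which carries immunoglobulin A across the epithelium, fell from 5029 CPM in the section to 445, 359.8 and 1267 CPM in the adenomas (-2.86 ± 0.64, adjusted p = 0.0336).

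Among 27 chemokine genes 4 rose and 0 fell, a share not far from that of all genes, but the sizes were large. Cxcl14 stood at 14.8 CPM in the section and 141, 166 and 153 CPM in the adenomas (3.37 ± 0.22, adjusted p = 0.00652), with little spread. Cxcl5, which draws neutrophils, was at 3.32 CPM in the section and 205, 128 and 83.1 CPM in the adenomas (5.38 ± 0.90), and Cxcl1 at 0.86 CPM in the section and 16.5, 26.2 and 12.6 CPM in the adenomas (4.41 ± 0.83). Ccl28, an epithelial chemokine for plasma cells, was at 229.9 CPM in the section and 9.62, 7.67 and 58.7 CPM in the adenomas and did not pass (-3.18 ± 1.01, adjusted p = 0.0688). Of 21 cytokine genes 5 rose and 1 fell, the median being 2.04 as fitted and 1.37 where genes without counts are held at their bound. Il23a, a subunit of interleukin 23, was at 0.229 CPM in the section and 28.8, 32.4 and 20.9 CPM in the adenomas (6.86 ± 1.05, adjusted p = 0.0173). Il11, which signals through the shared receptor gp130, was at 0.229 CPM in the section and 12.8, 24.2 and 11.1 CPM in the adenomas (6.09 ± 0.77), and Il1b at 15.6 CPM in the section and 75.3, 68.7 and 48.7 CPM in the adenomas (2.04 ± 0.50). Il18, made by the epithelium, fell from 163 CPM in the section to 33.3, 39.4 and 76.3 CPM in the adenomas (-1.71 ± 0.44). The interferon list had 1 of 25 genes higher, Usp18, at 1.49 CPM in the section and 55, 34.8 and 30.2 CPM in the adenomas (4.74 ± 0.80, adjusted p = 0.0206), and 0 lower. The target gene Isg15 did not pass (0.14 ± 0.78). All 10 MHC class II genes had negative values and 0 were called (median -1.30), as in Cd74, at 464 CPM in the section and 226, 164 and 209 CPM in the adenomas. Without AOM/DSS adenoma 2, whose class II sum was 4305 CPM against 1827 and 1628 CPM in the other AOM/DSS adenomas, 8 of the 10 were called lower. With the 4 ApcMin/+ libraries alone 5 were, and with DESeq2 6. Of the 16 immediate early genes 5 rose (median 1.00), including Jun, at 70.5 CPM in the section and 257, 315 and 245 CPM in the adenomas (1.95 ± 0.29). Without adenoma 1 the prostaglandin, acute phase, chemokine, cytokine, interferon and immediate early lists had 1, 1, 2, 1, 0 and 2 genes higher, and without adenoma 2 they had 0, 1, 1, 1, 0 and 1.

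Markers of cell types that a piece of colon wall can hold were summed in each library. Neutrophil markers rose in 3 of 11 cases (median 2.66, or 2.10 with bounds), and their sum was 133 CPM in the section and 362, 238 and 224 CPM in the adenomas. Csf3r, the receptor for granulocyte colony-stimulating factor, was at 2.41 CPM in the section and 25, 12.7 and 13.1 CPM in the adenomas (2.81 ± 0.75). Ly6g, a defining surface marker of these cells, was at 90.6 CPM in the section and 8.81, 7.8 and 58.4 CPM in the adenomas, lower in each adenoma than in the section and not called. It made up most of the neutrophil sum in the section. Mast cell markers rose in 3 of 9 cases (median 3.35), with a sum of 11.9 CPM in the section and 103, 45.5 and 58.5 CPM in the adenomas; Tpsb2, a tryptase, was at 1.55 CPM in the section and 15, 7.53 and 18.7 CPM in the adenomas (3.15 ± 0.63). Macrophage, T cell and endothelial markers had 0, 1 and 1 genes higher of 13, 15 and 13, and 0 lower. Macrophage markers summed to 915 CPM in the section and 1172, 1006 and 953 CPM in the adenomas, and endothelial markers to 316 CPM in the section and 359, 314 and 343 CPM in the adenomas. B and plasma cell markers had negative values in 14 of 14 cases (median -3.47) with 0 called, and summed to 2511 CPM in the section and 331, 76.2 and 336 CPM in the adenomas. That count turned on AOM/DSS adenoma 2, which enters only through the estimate of spread and had a sum of 3139.5 CPM against 649 and 413 CPM in the other AOM/DSS adenomas. Without it 13 of the 14 were called lower, and 7 were with the 4 ApcMin/+ libraries alone and 7 with DESeq2. Smooth muscle markers fell in 7 of 14 cases (median -2.49): Acta2, smooth muscle actin, was at 1410.3 CPM in the section and 235, 279 and 513 CPM in the adenomas (-2.04 ± 0.44), and Tagln at 1371 CPM in the section and 128, 145 and 401 CPM in the adenomas (-2.61 ± 0.61). Nerve and Cajal cell markers fell in 3 of 16 cases, with a sum of 518 CPM in the section and 143, 133 and 297 CPM in the adenomas, and adipocyte markers in 4 of 8, with a sum of 352 CPM in the section and 16.6, 20.3 and 60.5 CPM in the adenomas. Adenoma 3 was the nearest to the section in the smooth muscle, nerve and adipocyte sums. Plin1, a coat protein of fat droplets, was at 0 in all 3 adenomas. The part of these cell types in the changes of other lists was not tested. Without adenoma 1 or without adenoma 2 the smooth muscle, nerve and neutrophil lists had 0 genes called, and without adenoma 3 smooth muscle had 13 lower. The mast cell list had 0 genes higher without adenoma 1, 2 without adenoma 2, 1 without AOM/DSS adenoma 1 or 3, and 0 with the 4 ApcMin/+ libraries alone. The T cell and endothelial lists had 0 called without adenoma 1 or 2, and the adipocyte list 2 lower in each case.

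**Figure D4:**
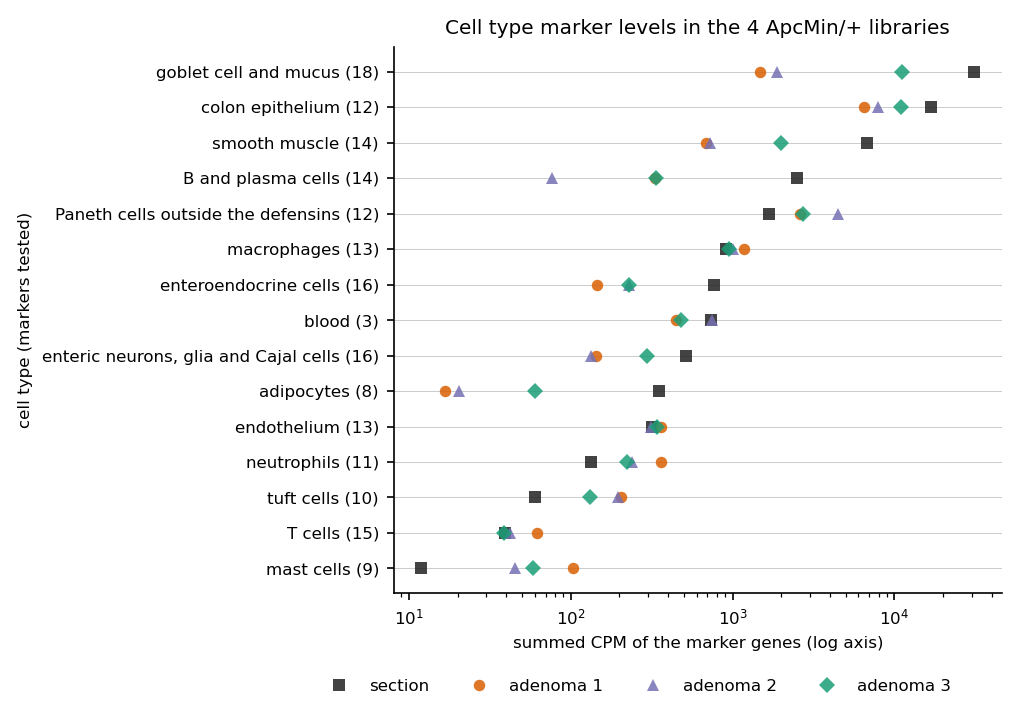
Summed CPM on a log axis of the markers of 15 cell types in the section (black squares) and in adenomas 1, 2 and 3 (circles, triangles, diamonds). Smooth muscle markers lie at 6775 CPM in the section and at 687, 722 and 1998 CPM in the adenomas, while endothelial and macrophage markers stay close to the section. A sum can rest on 1 abundant gene. The tuft cell sum was 59.8 CPM in the section and 205, 195 and 131 CPM in the adenomas, where most of it was Avil. Of the 10 tuft cell genes, 9 had negative values.

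The genes with the highest and lowest fold changes were mostly close to absent from the other tissue. The ranking took called, named genes with separate groups and an average log2 CPM, as edgeR gives it, of at least 2. That average follows the mean CPM over the 8 libraries, so a gene absent from the section can pass on its adenoma level. Less abundant genes with large ratios are left out. Of the 12 highest, 11 had 0 counts in the section, so only a lower bound against 3 counts can be given. Otop1 and its relative Otop2, proton channel genes, were at 36.9, 66.1 and 59 CPM and 17.5, 16.6 and 7.69 CPM in adenomas, which is at least 314-fold higher for Otop1 and at least 81.0-fold higher for Otop2. Psapl1, a gene related to prosaposin, was at 23.6, 33.3 and 27.4 CPM, at least 164-fold higher. Serpinb11, a serpin, was at 18.3, 21.2 and 20 CPM, at least 115-fold higher, and Prom2, a membrane protein related to prominin 1, at 11.8, 13.5 and 16.1 CPM, at least 80.2-fold higher. These genes were detected in every ApcMin/+ adenoma. In all, 74 genes called higher had 0 counts in the section. At the other end, Cfd, the adipocyte protease adipsin, stood at 33 CPM in the section and 0.0454, 0 and 0 CPM in the adenomas, with 1 count over the 3 adenomas, a ratio of 2193 (95% counting interval 392 to 86782). Car3, a carbonic anhydrase of fat and muscle, fell from 47.7 CPM in the section to 0.635, 1.11 and 0.412 CPM in the adenomas (-6.04 ± 0.66, adjusted p = 0.0101). Angptl7, an angiopoietin-like gene, was at 13.6 CPM in the section and 0.272, 0.133 and 0.595 CPM in the adenomas (-5.33 ± 0.64). Absorptive genes were also among the lowest. Aqp8, the water channel of colonocytes, was at 568 CPM in the section and 7.72, 0.266 and 22.8 CPM in the adenomas (-5.79 ± 1.48), and Fabp2, a fatty acid carrier, at 68.1 CPM in the section and 0.681, 0.31 and 5.4 CPM in the adenomas (-5.00 ± 1.20). Aadac, an esterase, was at 38.2 CPM in the section and 0.545, 0.576 and 2.66 CPM in the adenomas (-4.92 ± 1.04). Cfd and Car3 moved with the adipocyte markers given above, and the part of these cells was not tested.

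The largest gains in CPM were in other genes. Spock2, an extracellular proteoglycan, went from 10.8 CPM in the section to 1703, 1411 and 1036 CPM in the adenomas (7.00 ± 1.12, adjusted p = 0.019). Ifitm3, an interferon-induced membrane protein, was at 96.4 CPM in the section and 846, 852 and 655 CPM in the adenomas (3.03 ± 0.34). Abundant housekeeping-type genes rose by smaller factors: the chaperone gene Hsp90ab1 was at 1201 CPM in the section and 2347, 2563 and 2321 CPM in the adenomas (1.00 ± 0.20), and the tubulin gene Tubb5 at 192 CPM in the section and 906, 1005 and 678 CPM in the adenomas (2.17 ± 0.29). Ctnnb1, which encodes β-catenin, was at 940.5 CPM in the section and 1908, 2055 and 1649.9 CPM in the adenomas (0.99 ± 0.25, adjusted p = 0.0441). The largest losses were in mt-Co1, at 27863 CPM in the section and 10539, 14554 and 13549 CPM in the adenomas (-1.11 ± 0.24), and Sprr2a2, a cornified envelope gene with near copies, at 11130.1 CPM in the section and 1099, 963 and 3541 CPM in the adenomas (-2.58 ± 0.70, adjusted p = 0.0498). Igha, the heavy chain of immunoglobulin A, was at 7241 CPM in the section and 1029, 206 and 1057 CPM in the adenomas and did not pass. Of 17 alternative fits, 10 lost the call of Ctnnb1, 11 that of Sprr2a2 and 7 that of mt-Co1. The other called genes of this paragraph lost their call in at most 4.

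The adenomas were not alike. Among 1731 genes called higher, adenoma 3 was the adenoma nearest to the section in 80.0%, and among 1093 called lower in 86.3%, against 60.4% of all genes tested. Median log2 differences from the section over the genes called higher were 1.60, 1.56 and 1.22 in adenomas 1, 2 and 3, and over those called lower -1.58, -1.57 and -1.04. Since the calls were made with these same adenomas, this is a description. Of the 8 abundant genes that varied most among adenomas, all were highest in adenoma 3. Nov, a matricellular gene, was at 721 CPM in the section and 3.95, 2.79 and 209 CPM in the adenomas, and B3gnt7, a glycosyltransferase, at 991 CPM in the section and 18.2, 6.96 and 319 CPM in the adenomas. Klk1, a kallikrein of goblet cells, was at 2757 CPM in the section and 27.1, 21.9 and 634 CPM in the adenomas, and Pck1, a gluconeogenic enzyme, at 231 CPM in the section and 2.45, 0.665 and 37 CPM in the adenomas. None of the 8 was called: the others were Zg16, Slc26a3, Car4 and Gsdmc3. Medians of some lists showed the same: WNT targets had medians of 3.75, 3.52 and 3.19 in adenomas 1, 2 and 3, and mitosis genes 1.80, 1.82 and 1.18. Other lists did not. Adenoma 3 lay farthest from the section in BMP and TGF-β genes (0.085, 0.264 and 0.428) and in integrins and laminins (0.041, 0.139 and 0.421). It did so too in the EGF family, the collagens and the immediate early genes (0.676, 0.850 and 1.16 in the last). The immediate early gene Fos was at 45.6 CPM in the section and 29.2, 75.6 and 166 CPM in the adenomas, highest in adenoma 3, and did not pass.

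**Figure D5:**
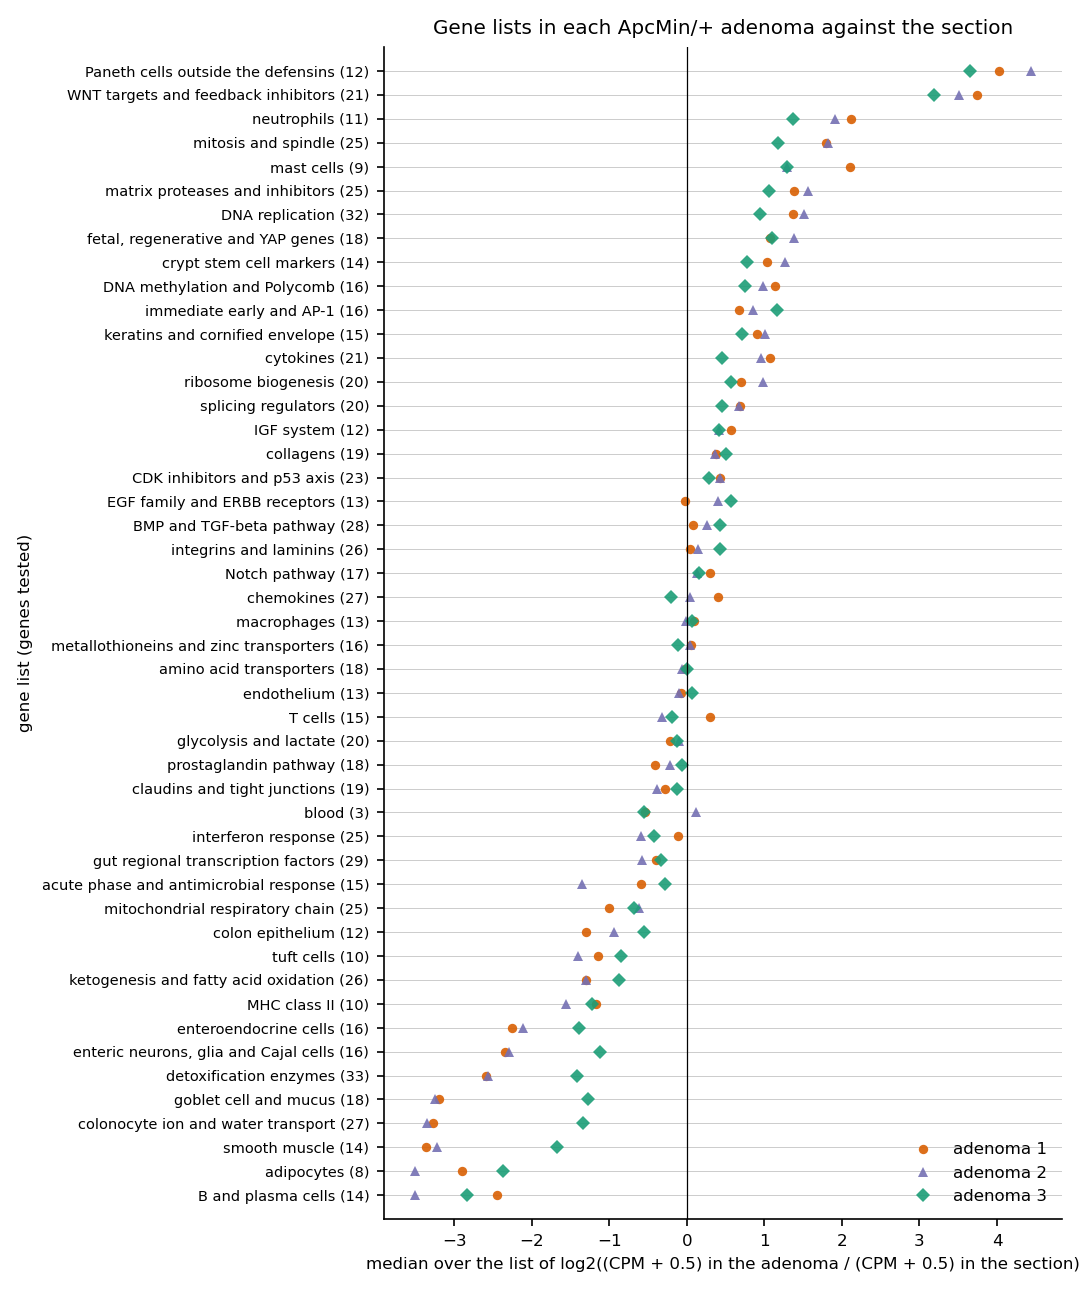
Median over each gene list of the log2 difference of each adenoma from the section (0.5 CPM added to both), with the number of genes tested in brackets and lists ordered by the mean of the 3 medians. Adenoma 3 (diamonds) lies nearest to 0 in the lists with the lowest medians other than B and plasma cells, such as smooth muscle and goblet cells, and also in WNT targets.

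Whether these changes differ between the models was tested in the same fit, as the change in ApcMin/+ adenomas less that in AOM/DSS adenomas. No gene passed (0 of 17218, 0%; smallest adjusted p = 0.112), while 1369 had an unadjusted p under 0.05, and DESeq2 called 191. Nothing above can therefore be called particular to ApcMin/+ adenomas. Values in AOM/DSS tissue are given for a few genes, chosen after values were seen. Axin2 stood at 52.1 CPM in the AOM/DSS section and 347, 257 and 420.0 CPM in its adenomas, a difference between the models of 1.11 ± 0.48 (adjusted p = 0.623). Apcdd1 stood at 10.4 CPM in the AOM/DSS section and 51.1, 68.1 and 69.9 CPM in its adenomas, a difference of 4.20 ± 0.42 (adjusted p = 0.138), with a higher section than in ApcMin/+ colon and lower adenomas. Car2 was at 289 CPM in the AOM/DSS section and 361, 264 and 212 CPM in its adenomas (-3.48 ± 0.78, adjusted p = 0.415). Ptgs2 was at 7.16 CPM in the AOM/DSS section and 8.2, 11.2 and 9.72 CPM in its adenomas (2.87 ± 0.63, adjusted p = 0.415). Acadm was at 119 CPM in the AOM/DSS section and 116, 117 and 109.8 CPM in its adenomas (-1.19 ± 0.24, adjusted p = 0.371). Each of these differences is larger than its SE and none passed, which does not show that the models are alike. There was 1 section per model. Summed goblet cell markers in AOM/DSS tissue were 23636 CPM in the section and 3241, 3328 and 1716 CPM in adenomas, so no adenoma there kept the level of ApcMin/+ adenoma 3.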

How the data were processed

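RNA of 8 mouse colon samples was read with single-read TruSeq libraries, per the labels' protocols. The authors deposited a table of 31189 genes with estimated counts, FPKM values (reads per gene length and depth) and ratios of FPKM between samples, per the file headers. Genome build mm9 is named in the submitters' processing notes; the sources used here name no aligner, counting tool, annotation or strand setting, so overlapping and antisense genes may share reads. The lowest deposited estimated count and FPKM are both 1, and FPKM per count scatters less in 64 low genes after 1 is subtracted (log2 SD 0.0748 against 0.197), so 1 was subtracted from both and the counts were rounded. The authors' ratio equals their FPKM ratio within 0.01 in 99.3% of values and was not used further.

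Genes were filtered with filterByExpr (minimum count 10, minimum total 15), scaled with TMM and fitted with edgeR 4.0.16 (R 4.3.3), with a mean for each of 4 groups over all 8 libraries and 4 residual degrees of freedom. P-values were adjusted by Benjamini-Hochberg over 17218 genes and called under 0.05; the SE of a log2 fold change is its size over the square root of F. DESeq2 1.42.0 and limma 3.58.1 on log2(FPKM + 1) were alternatives. Counting intervals (95%) and the floor of 3 counts cover counting error only.

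Members, gene lists and tests were chosen with earlier results of these data known. Lists are described by counts of called genes and medians, with no list test. Named genes were the 12 highest and 12 lowest fold changes (called, edgeR's average log2 CPM of at least 2, no overlap between section and adenomas, unnamed gene models left out), the most abundant genes, the largest CPM changes, the 8 most variable genes among adenomas and up to 4 called genes per list and direction by p. Uncalled list members are given by value. Some genes that the lists count are not reported here by name. 31 further called genes, among them Notum, Wif1, Prox1, Hoxd13 and Top2a, lie outside that rule and were named after their values were seen. Same-numbered adenomas of the models did not deviate together (correlations -0.071, -0.265 and -0.237), so the numbers were not used as pairs.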

Additional observations from a re-analysis of the deposited data

How the results depend on the processing

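Against 2824 calls in all (1731 higher, 1093 lower), DESeq2 called 4440 genes, of which 2053 were lower. The 4 ApcMin/+ libraries alone gave 951 calls (747 higher, 204 lower). Limma on log2(FPKM + 1) and log2(FPKM + 0.1) called 608 and 381 genes lower. Over the fits that left out 1 adenoma of either model, the calls ranged from 354 to 4419, those higher from 319 to 2179 and those lower from 35 to 2240. Leaving out the AOM/DSS section, an alternative chosen after seeing the data, gave 2833. The replicate block, with adenoma numbers that do not pair the samples, left 72 calls (57 higher, 15 lower). The difference between the models had 191 calls with DESeq2, 3 with limma on log2(FPKM + 1), 3 on log2(FPKM + 0.1) and 267 on log2(FPKM + 1) without a filter, and 0 in the edgeR fits that could test it. The cause of these shifts was not tested. All other alternatives kept the total within 1.5 times. Of 166 called genes named in the text, 16 kept their call in every alternative, the replicate block included. The call was lost by 97 without adenoma 1, by 107 without adenoma 2 and by 0 without adenoma 3. With the 4 ApcMin/+ libraries alone 67 lost it, and with the replicate block 149. Uncalled genes whose sign turned under limma on log2(FPKM + 1), with or without a filter, and on log2(FPKM + 0.1) were Col3a1 (0.1405, 0.1406), Mt1 (0.165, 0.1661), Orc1 (0.0995, 0.1188) and Slc2a1 (0.0313, 0.0318). Without 1 adenoma, log2 values ranged from -0.2368 to 0.0206 for Col3a1, -0.0491 to 0.2967 for Isg15 and -0.0617 to 0.2965 for Ly6a. One section per model limits every comparison here: the spread of non-adenoma colon was not measured, and genes with few counts in the section give bounds only.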
